A study of Mus with 6 samples.

Results

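Malat1, Neat1 and Miat are long non-coding RNAs (lncRNAs) that stay in the nucleus after transcription. They were taken by name from a deposited table of 2282 RNA names, mostly lncRNAs, measured in mouse midbrain, and all 3 were found. The tissue was the right substantia nigra pars compacta (SNpc), the midbrain nucleus whose dopaminergic neurons degenerate in Parkinson's disease. All mice overexpressed human α-synuclein with the A53T substitution, so controls and treated animals alike carried the transgene, and the labels name neither its promoter nor the animals' ages. The 3 samples of the model group came from mice injected intraperitoneally with 0.9% saline every day for 30 days. The 3 samples of the other group came from mice given AVE0991, a non-peptide agonist of the receptor Mas, at 10 mg/kg by the same route and schedule. The labels do not state that each sample is a separate animal, so the p-values speak only of how far these samples differ, which could be technical variation.

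Each of these RNAs is tied to a structure inside the nucleus. Malat1 collects at nuclear speckles, where splicing factors are stored, and is abundant in neurons and glia. Neat1 is the architectural RNA of paraspeckles: it is the scaffold on which proteins such as Sfpq and Nono assemble, and it is induced by many kinds of cell stress. Miat, also called Gomafu, forms its own scattered nuclear domains in neurons and binds splicing regulators such as Sf1 and Qki.

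The deposited table gives group means with a test statistic per name. The read counts of each library were worked out from these (the methods give the steps), and exactly 1 set of whole counts matched for each of the 3 RNAs. The libraries are called a, b and c within each group, since the table does not show which replicate number they carry. Levels are normalized counts, that is reads divided by the library factor the authors applied. The recovered libraries held 1812201 to 2525621 reads over all recovered names. The sources used here do not give the length of the counted features, so levels are compared between libraries and not between genes. None of 20 protein-coding markers listed for dopaminergic neurons, other neurons, astrocytes, oligodendrocytes and microglia is in the table, so the labelled tissue could not be checked against them.

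Miat was the 1 of the 3 that passed the edgeR test: it was about 2-fold higher with AVE0991. This call was kept in only 1 of 6 fits with a library left out. Fewer samples enter those fits. In the 5 that lost the call, 80 to 139 names passed over the whole table, and in the other 410 did. Malat1 had a lower mean with AVE0991 and Neat1 a slightly higher one, but neither passed the test, and for Malat1 the libraries of each group differed from each other more than the group means did. Over all names tested, 287 of 1871 (15.3%) passed the same test in either direction, and 138 (7.38%) were higher with AVE0991. The count of 1 in 3 is read against that background and does not set these RNAs apart from other names.

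Malat1 had 134799, 185119.6 and 28999.0 normalized counts across model libraries a to c. With AVE0991 it had 117614, 27679.9 and 22053, again from a to c. In each group the libraries divided into high and low ones, with model libraries a and b and AVE0991 library a high and the other 3 low, so that the groups overlapped. The highest library exceeded the lowest 6.38-fold in the model group and 5.33-fold with AVE0991. The mean was 116306 ± 79686 (SD, n = 3) for the model group. With AVE0991 it was 55782.5 ± 53622 (SD, n = 3).

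The fitted log2 fold change of Malat1, AVE0991 over model, was -1.0 ± 0.75 (SE), with a 95% interval from -2.71 to 0.72. As a fold this interval runs from 0.15 to 1.64, so the data allow both a large fall and a moderate rise. The edgeR quasi-likelihood test gave an adjusted p of 0.420 (Benjamini-Hochberg). The exact permutation test of the log2 levels gave p = 0.2 (two-sided), where 0.10 is the smallest p that 3 samples against 3 allow. The authors' deposited table gives the difference of the means as -60523, with a statistic of -1.09 at 3.50 degrees of freedom and an unadjusted p of 0.344. The estimate depended on single libraries: it was -2.13 without AVE0991 library a, -1.46 without model library c and -0.51 without model library b. None of these fits passed either (edgeR, Benjamini-Hochberg adjusted p = 0.1003, 0.141 and 0.769), although the first and second had an unadjusted p under 0.05. The strand setting of the counting is not given, so for these 3 RNAs and every other name below, reads from a gene and from an RNA antisense to it cannot be told apart.

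**Figure D1:**
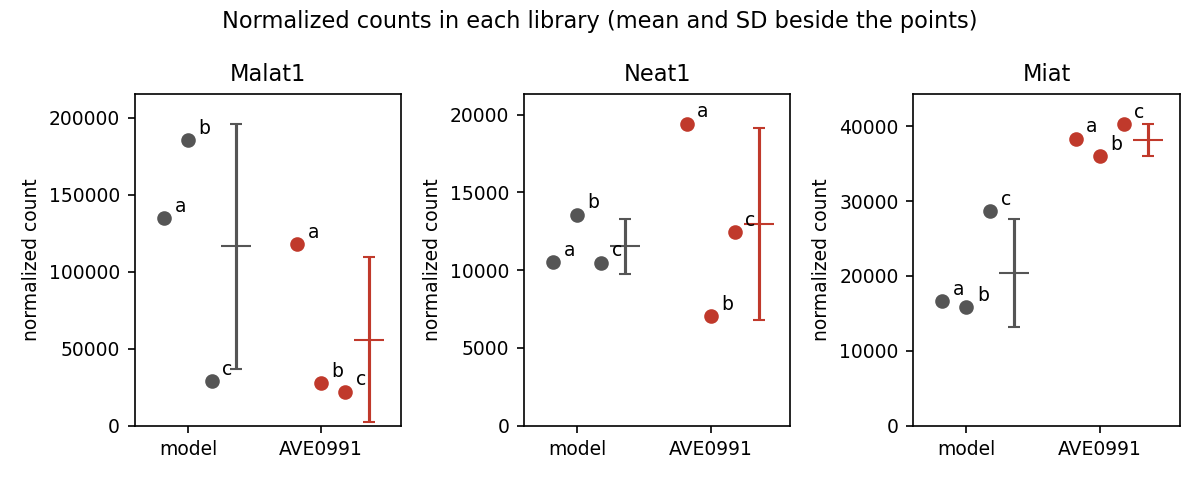
Normalized counts of Malat1, Neat1 and Miat (vertical axes, each from 0) in the 3 model and 3 AVE0991 libraries. Each point is 1 library, marked with its letter, and the bar beside each group is its mean with the SD. The 3 AVE0991 points of Miat, 35987 to 40270.1, all lie above the model points, whereas those of Malat1 and Neat1 overlap with the model group.

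For Neat1, model libraries a, b and c held 10513, 13566.5 and 10473 normalized counts. AVE0991 libraries a, b and c held 19409.6, 7062 and 12427. The model libraries lay close together, while the AVE0991 libraries held 1 value above all of them, 1 below and 1 within their range. The means were 11517.5 ± 1775 (SD, n = 3) and 12966 ± 6191 (SD, n = 3), so that the SD was 15.4% of the mean in the model group and 47.8% with AVE0991. The log2 fold change was 0.24 ± 0.32 (SE), with a 95% interval from -0.49 to 0.97, that is from 0.71-fold to 1.97-fold (edgeR quasi-likelihood test, Benjamini-Hochberg adjusted p = 0.667). The exact permutation test gave p = 1 (two-sided). The authors' deposited table gives an unadjusted p of 0.73, with a statistic of 0.390 at 2.33 degrees of freedom. Without AVE0991 library a the sign of the estimate turned, to -0.15. Without AVE0991 library b the estimate was 0.53 ± 0.22 (SE), with an unadjusted p of 0.0427 in edgeR. It did not pass after Benjamini-Hochberg adjustment (edgeR, adjusted p = 0.177).

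For Miat, model libraries a, b and c held 16686, 15832 and 28652.5 normalized counts. AVE0991 libraries a, b and c held 38336, 35987 and 40270.1. Model library c stood well above the other model libraries, and still below every AVE0991 library: the lowest AVE0991 value was 1.26 times the highest model value. Groups that do not overlap were common in this table, with 728 of 1871 names (38.9%) in either direction and 308 (16.5%) with AVE0991 higher. The mean was 20390.0 ± 7168 (SD, n = 3) for the model group. With AVE0991 it was 38198 ± 2145 (SD, n = 3).

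The log2 fold change of Miat was 0.97 ± 0.24 (SE), or 1.96-fold, with a 95% interval from 1.35-fold to 2.85-fold. It passed the edgeR quasi-likelihood test (Benjamini-Hochberg adjusted p = 0.0294), and the exact permutation test gave p = 0.1 (two-sided), the smallest possible here. The authors' deposited table gives Miat an unadjusted p of 0.0406, with a statistic of 4.12 at 2.36 degrees of freedom. There, 423 of 2247 names (18.8%) had an unadjusted p under 0.05, and adjusted here over all of them the value for Miat was 0.264. The edgeR call was lost without AVE0991 library a, b or c (Benjamini-Hochberg adjusted p = 0.0713, 0.0645 and 0.0984) as well as with either model library a or model library b left out (0.111 and 0.0950). Without model library c it was kept, at a log2 fold change of 1.31 (edgeR, adjusted p = 0.000423). Fewer samples entered each of these fits, and the log2 fold change was 0.81 to 1.02 where the call was lost. Since this is bulk tissue, fewer or more cells that make an RNA and less or more of it per cell cannot be told apart.

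**Figure D2:**
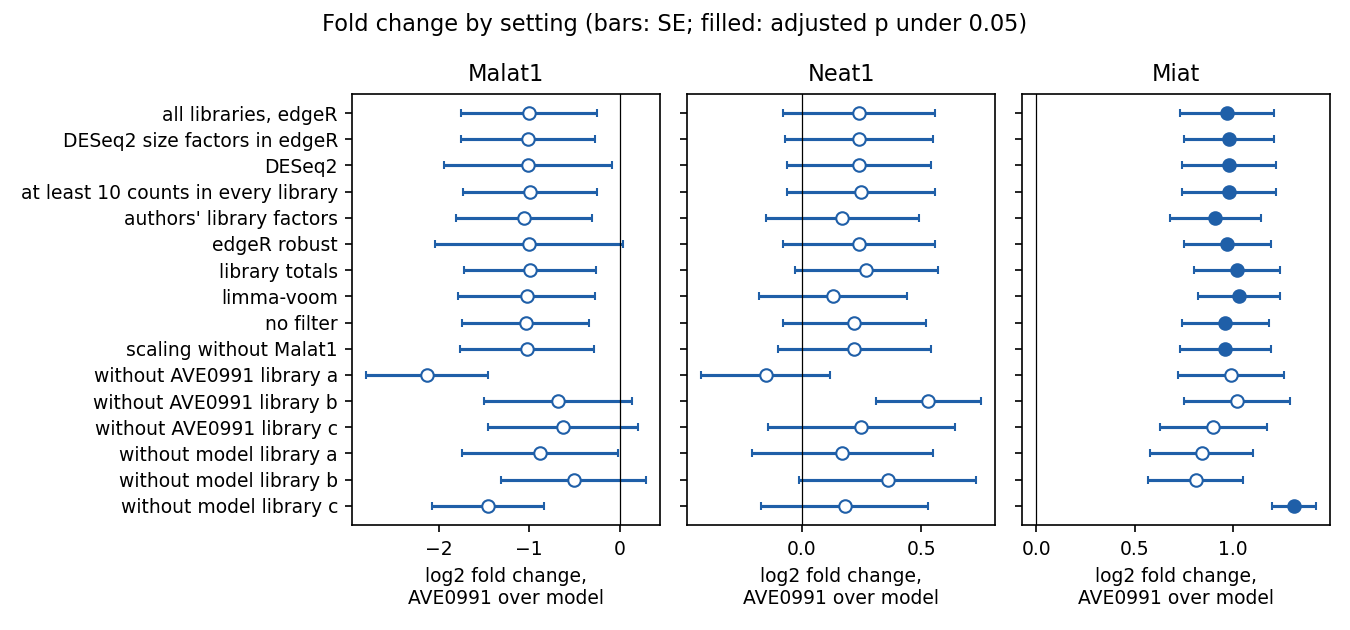
Log2 fold change (horizontal axes, AVE0991 over model, bars are SE) of each RNA with all libraries, under other scalings, filters and tools, and with each library left out. Filled points have an adjusted p under 0.05. The Miat estimates lie between 0.81 and 1.31 and the Malat1 estimates between -2.13 and -0.51, and those of Neat1 lie on both sides of 0.

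The 3 RNAs did not rank the libraries in the same order. Ratios taken within a library are free of library scaling, and 3 were compared. The log2 ratio of Miat to Malat1 was -3.01, -3.55 and -0.02 across model libraries a to c. It was -1.62, 0.38 and 0.87 with AVE0991. Model library c therefore lay among the AVE0991 libraries in this ratio, and the groups overlapped. The mean ratio was higher with AVE0991 by 2.07 (log2; exact permutation test, two-sided p = 0.2, adjusted p = 0.3 over the 3 ratios).

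The log2 ratio of Neat1 to Malat1 was -3.68, -3.77 and -1.47 across model libraries a to c and -2.60, -1.97 and -0.83 with AVE0991. That of Miat to Neat1 was 0.67, 0.22 and 1.45 across model libraries a to c and 0.98, 2.35 and 1.70 with AVE0991. Both had a higher mean with AVE0991, by 1.17 and 0.90 on the log2 scale, and both overlapped between the groups (exact permutation tests, two-sided p = 0.3 and 0.2, adjusted p = 0.3 for each). With each library left out in turn, the difference ran from 1.39 (without model library b) to 3.16 (without model library c) for Miat to Malat1. For Neat1 to Malat1 it was 0.69 without AVE0991 library c, 0.78 without model library b and 1.93 without model library c, and for Miat to Neat1 it ran from 0.56 (without AVE0991 library b) to 1.24 (without AVE0991 library a). A difference in response between the 3 RNAs was therefore not shown by these ratios. With 3 samples against 3 no such test could have gone below 0.10.

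**Figure D3:**
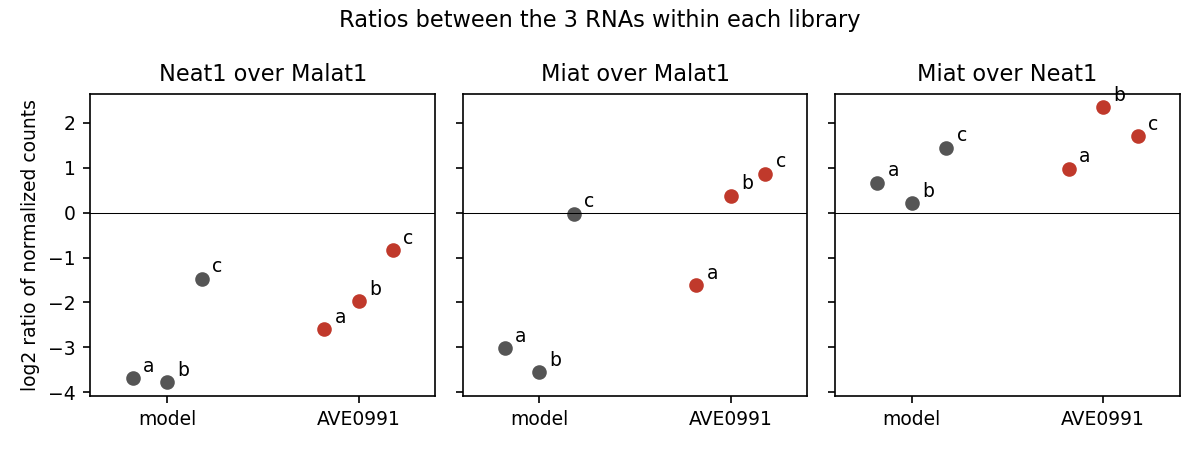
Log2 ratio of the normalized counts of each pair of RNAs (vertical axis) in every library, marked with its letter. In both ratios to Malat1, model library c (-1.47 and -0.02) sits well above model libraries a and b.

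The spread of Malat1 was large for an RNA with so many reads. Its within-group SD on the log2 scale, pooled over the groups, was 1.37. Of 375 names with a mean of at least 1000 normalized counts, 5 had a larger one: Uckl1os, 1700064M15Rik, Gm15569, Gm8579 and Gm26839, named after their values were seen. The median over the 375 names was 0.19. Kcnq1ot1, the imprinted antisense RNA of the Kcnq1 domain, and Lncpint, a p53-linked lncRNA, had means of 84399 and 80541 normalized counts, close to the 86044 of Malat1, and SDs of 0.10 and 0.22. Neat1 had an SD of 0.54, with 21 names above it, and Miat one of 0.34, with 55 above it. Malat1 made up 6.29%, 8.50% and 1.30% of the recovered reads across model libraries a to c and 5.57%, 1.39% and 1.12% with AVE0991. Recovered reads leave out very abundant names, above all 4930509G22Rik, with mean normalized counts of 2166078 (model) and 1719508 (AVE0991). The share of Malat1 among the reads of all names is therefore much lower. With Malat1 left out of the library sizes and scaling, the log2 fold changes of Miat and Neat1 were 0.96 and 0.22, against 0.97 and 0.24 with it.

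**Figure D4:**
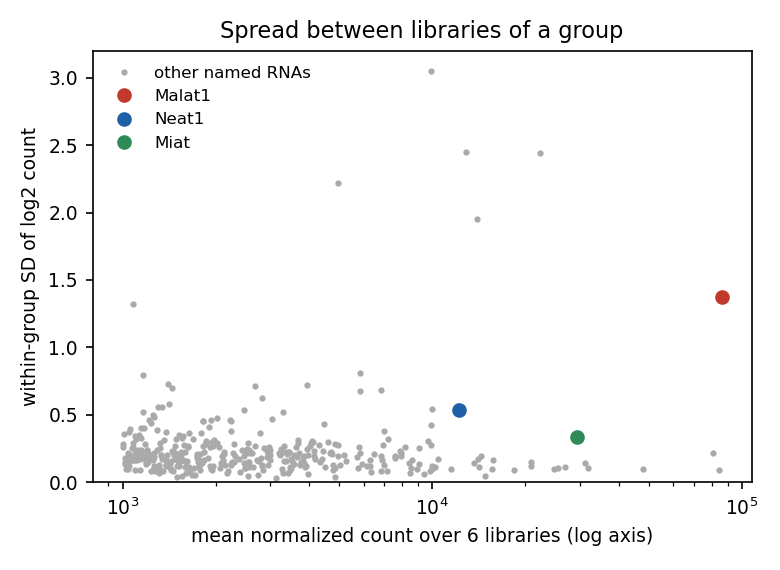
Within-group SD of the log2 normalized count (vertical axis) against the mean normalized count over 6 libraries (horizontal log axis) for 375 named RNAs with a mean of at least 1000. Malat1, at 1.37, lies far above the grey points at the right edge, Kcnq1ot1 and Lncpint, which had similar mean normalized counts.

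Other RNAs with a similar course over the 6 libraries were found by the root mean square difference of centred log2 levels, among 1243 names with a mean of at least 100 normalized counts. For Miat the nearest were Gm32014, Gm36582 and 4930423M02Rik, at 0.068, 0.088 and 0.091. Gm32014 had 3828, 3791 and 7295 normalized counts in model libraries a, b and c and 9000.3, 8959.0 and 8919.5 with AVE0991, the same order of low, low and intermediate model libraries below a level AVE0991 group. They were chosen for matching Miat in these same libraries, group difference included, so their log2 fold changes of 0.91, 0.91 and 0.93 are set by that choice and are given as a description. For Neat1 the nearest were 0610040B10Rik, the miRNA locus Mir8092 and 6330415G19Rik, at 0.187, 0.233 and 0.236. No name came as near to Malat1: C530044C16Rik lay at 0.612, Gm7457 at 0.774 and Gm10941 at 0.781. Neat1, which lies next but one to Malat1 in the RefSeq gene order, was only the 200th nearest to it, at 1.086.

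At the genes around these loci, within 10 places on either side in the RefSeq order, the table holds few other names. Malat1 and Neat1 have only each other. Near Miat lie 1700028D13Rik and E130006D01Rik, and neither passed the edgeR test, or had an unadjusted p under 0.05. E130006D01Rik had 107, 135 and 254 normalized counts in model libraries a, b and c and 308, 342 and 190.0 with AVE0991; its log2 fold change was 0.82 ± 0.36 (SE). That of 1700028D13Rik, the direct neighbour of Miat, was -0.64 ± 0.49.

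Of 20 other nuclear-retained lncRNAs listed for comparison, 16 are in the table and 15 were tested. Of these, 1 was higher, 3 were lower and 11 did not pass, with a median log2 fold change of 0.05 against 0.00 over all names; 7.96% of all names were lower. Dlx6os1, the antisense RNA of the forebrain gene Dlx6, rose by 2.74 ± 0.36 (SE, log2). Airn, which silences genes of the Igf2r imprinted cluster, had a log2 fold change of -1.97 ± 0.21, and Paupar, beside Pax6, one of -2.40 ± 0.20. Trp53cor1, or lincRNA-p21, a target of p53, had 217.5 ± 2.52 normalized counts in the model group and 129.7 ± 9.84 with AVE0991 (SD, 3 libraries each); its log2 fold change was -0.68 ± 0.18 (SE; edgeR, Benjamini-Hochberg adjusted p = 0.0412). The 11 others ran from -0.21 for Firre to 0.66 for Tsix, and include Xist, Kcnq1ot1, Mirg, Rmst, Lncpint, Pvt1, Hotair, Sox2ot and Peg13. Counts could not be recovered for Meg3, whose log2 fold change in the authors' deposited table is 0.03.

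**Figure D5:**
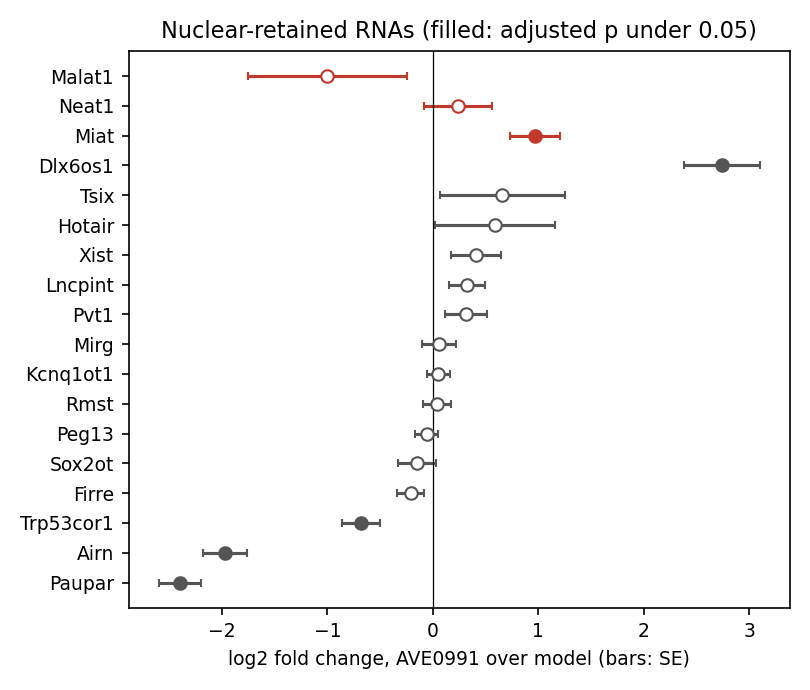
Log2 fold change (horizontal axis, AVE0991 over model, bars are SE) of Malat1, Neat1 and Miat in red and of the 15 other tested nuclear-retained lncRNAs in grey. Filled points have an adjusted p under 0.05, and they lie on both sides of 0, from Paupar at -2.40 to Dlx6os1 at 2.74.

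RNAs of other nuclear bodies were few. Terc, the telomerase RNA, and the Cajal body RNAs Scarna6 and Scarna8 were tested, and none passed, with log2 fold changes of -0.50, 0.39 and -0.49. Scarna8 had 643, 600.5 and 507 normalized counts in model libraries a, b and c and 370, 447 and 369 with AVE0991 (edgeR, Benjamini-Hochberg adjusted p = 0.0825). At an unadjusted p under 0.05, 1 of the 3, Scarna8, passed in edgeR, where 571 of all 1871 names (30.5%) did, so this count is near the background. None of the 14 listed genes for paraspeckle, speckle or Miat-binding proteins, such as Sfpq, Nono, Son, Qki and Sf1, is in the table.

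The makeup of the tissue was followed here through a few lncRNAs listed as enriched in a cell type. The astrocyte lncRNA 2900052N01Rik had 2693, 2248 and 4029 normalized counts in model libraries a, b and c and 5538, 4964 and 5122 with AVE0991; its log2 fold change was 0.87 ± 0.22 (SE; edgeR, Benjamini-Hochberg adjusted p = 0.0344). It is the only one of the 3 astrocyte lncRNAs listed that is in the table. Like Miat it was highest in library c of the model group and higher still with AVE0991. Dlx6os1, the antisense RNA of a forebrain gene, had that shape too. It had 2257, 1566 and 4292 normalized counts in model libraries a to c and 14379, 19978 and 17491.5 with AVE0991. Among all names, 308 of 1871 (16.5%) had groups that did not overlap with AVE0991 higher, so the shape was common. The part of 2900052N01Rik, Dlx6os1 or tissue makeup in the result for Miat was not tested. The 2 recovered neuronal lncRNAs of 5 listed, Mirg and Peg13, summed to between 45780 and 51473.0 with AVE0991 and between 50477 and 55756 in the model group. Most of this sum was Peg13, with a mean of 45700 with AVE0991 against 3686 for Mirg. The oligodendrocyte lineage lncRNAs 9630013A20Rik and C030029H02Rik summed to between 3811.5 and 5980 with AVE0991 and between 4183 and 5699 in the model group. Their log2 fold changes had opposite signs, 0.62 ± 0.18 and -0.22 ± 0.20 (SE), which the sum does not show. The microglial lncRNA F630028O10Rik ran from 58.5 to 254 with AVE0991 and from 76.3 to 122 in the model group. None of these 5 passed the edgeR test, and at an unadjusted p under 0.05 there was 1, 9630013A20Rik (log2 fold change 0.62 ± 0.18). The astrocyte lncRNA 2900052N01Rik passed at both thresholds and is left out of these 5. With it counted in, neither share sets these lncRNAs apart from all names, of which 15.3% passed the edgeR test and 30.5% the unadjusted threshold.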

How the data were processed

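The members and the lists were chosen with earlier results of these data known. Per the labels, reads were checked with FastQC 0.11.8 and trimmed with fastp 0.19.5; the submitters' processing notes name STAR 2.7.7a, DESeq2 1.10.1 and mm9. Which program counted the reads, against which annotation and with what strand setting, is not stated in the sources used here. Whole-number counts were deposited for 87858 NONCODE identifiers (37036986 to 52029003 per sample); no file pairs identifiers with names. Their deposited table by name holds the mean signal of each group, a test statistic (score) and its degrees of freedom (per the file headers), an unadjusted p-value, a fold ratio and its log2.

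Whole counts per library were recovered from that table. A group mean is a mean of 3 counts divided by library factors (0.9209 to 1.1787), and both variances follow from the statistic and its degrees of freedom. Sets had to match the sum within a base tolerance of 6e-10 and the variance within one of 1e-08 (relative). Allowances for rounding were added to both, and the sum tolerance was looser for names with few reads. Of 2247 names, 2243 (99.82%) had 1 set; the abundant 4930509G22Rik, 4930546C10Rik, Meg3 and Norad did not and were left out of the fits. Letters order libraries by falling factor.

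The main test was edgeR 4.0.16 (R 4.3.3, quasi-likelihood, TMM scaling, filterByExpr), adjusted over 1871 names. Its SE is the absolute log2 fold change over the square root of F. Exact permutation tests used log2 levels. On data simulated once from the recovered names (1854 names tested), all 2235 recovered sets were right. Names whose counts were not recovered could not enter, so the simulation does not test recovery at their levels. Of 99 names changed 2-fold 47.5% were called, and of 98 changed 4-fold 83.7%. Of the calls, 5.84% were unchanged names. Each name was drawn independently, so the simulation holds no names that move together between libraries. These shares may therefore not hold for the real data. Alternatives were other scalings, filters and tools (DESeq2 1.42.0, limma-voom 3.58.1), robust fitting and each library left out. Scaling without Malat1 was added after seeing the data. Named genes were the 3 RNAs, the listed lncRNAs in the table, locus neighbours, cell type lncRNAs and the 3 names nearest to each RNA; the 5 with larger spread fall outside this rule. Of 2282 names, 2270 were found by symbol in RefSeq (GRCm38.p6), which served for gene order only because the builds differ. Promoter sequences were not analysed here.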

Additional observations from a re-analysis of the deposited data

How the results depend on the processing

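Outside the fits with a library left out, 10 alternatives were run for each RNA. Malat1 and Neat1 kept their direction and stayed short of the threshold in all 10, with log2 fold changes from -1.06 to -0.99 and from 0.13 to 0.27. Miat kept its direction in all 10 (0.91 to 1.03) and passed in 9; the exception was the authors' deposited test (log2 fold change 0.91, adjusted p = 0.264 after Benjamini-Hochberg adjustment here), which passed 0 of 2247 names, with 423 at an unadjusted p under 0.05 against 571 in edgeR. With a library left out, the log2 fold change of Miat ran from 0.81 to 1.31 and its edgeR call was kept in 1 of 6 fits, that of Neat1 ran from -0.15 to 0.53, reversed without AVE0991 library a, and that of Malat1 ran from -2.13 to -0.51. The number of named RNAs called, 287, ran from 80 to 410 when a library was left out; fewer samples enter those fits. Other settings gave 277 to 394 (DESeq2). None of the recovered names had a mean over all 6 libraries above 100000 normalized counts, so scaling without such names gave no value. No paired analysis was possible because the recovered libraries carry no replicate number. The planned promoter description was not run. At 3 samples a group the interval of Malat1 spans more than 10-fold.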
